A study of Mus musculus with 12 samples.

Results

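A set of 10 genes of the mouse X chromosome whose products bind, process, export or modify RNA were followed through induction of *Xist*: *Rbmx*, *Nono*, *Rbm3*, *Rbm10*, *Upf3b*, *Thoc2*, *Fmr1*, *Pqbp1*, *Ftsj1* and *Dkc1*. They were chosen by name from what their products are known to do, and all 10 were found among the 24627 genes of the count files, of which 1071 are X‐linked. All 10 also passed the filter on low counts (1 CPM or more in 6 or more of the 12 libraries, where CPM is the count scaled to library size), as did 13191 genes in all and 454 X‐linked genes other than these and *Xist*. RNA‐seq had been done on J1 ES cells, a male (XY) mouse embryonic stem cell line, at day 2 of differentiation by withdrawal of LIF. In every line a TetO promoter at the endogenous *Xist* locus was switched on by doxycycline (DOX, 1.5 μg/ml), and untreated cells (noDOX) were the controls. The lines were *Xist* FL, with the full‐length RNA, *Xist* ΔA, lacking the A repeat, and *Xist* ΔB+C, lacking the B and C repeats. Each line was grown with and without DOX, which makes 6 groups, and each group had 2 replicates. The lines are called FL, ΔA and ΔB+C cells below.

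*Xist* ΔB+C was made from *Xist* FL by CRISPR/Cas9 deletion and cloning, and *Xist* ΔA was an earlier line, so that the deletion and the clone cannot be told apart. The cells have a single X chromosome, and *Xist* therefore acts on their only copy of these genes. The RNA came from whole cultures, in which fewer cells expressing a gene and less RNA per cell cannot be told apart. Libraries held from 31337490 to 41240470 counts, and ΔB+C DOX replicate 2 was prepared from 100 ng of RNA where the others had 1000 ng. *Xist* itself stood at 2.48 to 8.27 CPM in the 6 noDOX libraries and at 570 to 1790 CPM in the 6 DOX libraries. Its mean with DOX differed by line, at 888 CPM in FL, 646 CPM in ΔA and 1470 CPM in ΔB+C cells. The paper counted cells with an *Xist*‐coated chromosome by RNA FISH, and their share also varied between the DOX samples. It was higher in both ΔB+C samples than in either FL sample, with the ΔA samples between. In no DOX sample were nearly all cells coated, so the percentages left below average over cells with and without *Xist*. The paper reported slightly relaxed silencing in ΔB+C cells against FL cells, more evident after adjustment for that share. The values below were not adjusted for that share. All 8 pluripotent cell markers listed for the check of cell identity (among them *Pou5f1*, *Sox2* and *Nanog*) were at or above 1 CPM in every library, summing to between 2730 and 4440 CPM. Of 5 mesendoderm markers (*T*, *Mixl1*, *Eomes*, *Mesp1* and *Gsc*) the first 3 passed the filter. The summed level of the 5, mostly that of *T* and *Eomes*, was 243 and 176 CPM in noDOX against 133 and 36.5 CPM in DOX for FL, 202 and 108 against 133 and 39 CPM for ΔB+C, and 47.7 and 37.6 against 62.3 and 40.1 CPM for ΔA. From 3 to 5 of the 5 were at or above 1 CPM in a library and none was at 0. *Eomes* fell in FL cells (log2 (fold change) −1.59 ± 0.295 SE, adjusted p = 0.0427, edgeR's quasi‐likelihood test) and in ΔB+C cells (−1.38 ± 0.294, adjusted p = 0.0431), and *T* and *Mixl1* were not called. Of 5 primed epiblast markers *Fgf5* (−1.48, adjusted p = 0.0434) and *Lef1* (−0.70, adjusted p = 0.0156) fell in ΔB+C cells, and none was called in the other lines without a block on the replicate number (described with the results). Primitive endoderm markers summed to between 22.4 and 55.4 CPM and fibroblast markers to between 10.1 and 53.1 CPM in a library, with 0 called without the block. With it, pluripotent markers had 1 lower (*Tdgf1*) and 2 higher in both FL cells and ΔB+C cells. Primed epiblast markers had 1 lower and 1 higher in FL cells and 3 lower in ΔB+C cells. Mesendoderm markers had 2 lower in both (*Eomes* and *Mixl1*) and primitive endoderm markers 1 higher in ΔB+C cells. No marker was called in ΔA cells. Of all tested genes, 8.13% were called lower and 5.72% higher with the block in FL cells, and 12% and 9.89% in ΔB+C cells. The median log2 (fold change) of the pluripotent markers was 0.53 in FL, 0.34 in ΔB+C and 0.11 in ΔA cells. *Esrrb*, called by neither fit, averaged 24.1 CPM in noDOX and 55.8 CPM with DOX in FL cells, and 25.1 and 92.1 CPM in ΔB+C cells. The part of these marker changes in the results below was not tested.

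*Xist* is the long non‐coding RNA that coats an X chromosome and starts its silencing. Its A repeat is needed for gene silencing, while the B and C repeats are known for recruiting Polycomb complexes, which modify histones. The genes followed here cover the main steps in the life of an RNA, and several of them (among them *Fmr1*, *Upf3b*, *Pqbp1*, *Ftsj1* and *Thoc2*) are known from X‐linked intellectual disability in humans.

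The genes lie on one side of *Xist* in the mm10 build, spread over much of the chromosome. Ordered by distance of their start sites from that of *Xist*, they run from *Pqbp1* (chrX:7894519-7899269, minus strand, 95.58 Mb away), *Rbm3* (chrX:8138975-8145880, minus) and *Ftsj1* (chrX:8238668-8252406, minus), which are neighbours, over *Rbm10* (chrX:20617503-20650901, plus), *Upf3b* (chrX:37091678-37110322, minus) and *Thoc2* (chrX:41794991-41920674, minus) to *Rbmx* (chrX:57383530-57393036, minus), *Fmr1* (chrX:68678541-68717963, plus), *Dkc1* (chrX:75095854-75109777, plus) and *Nono* (chrX:101429318-101448591, plus, 2.05 Mb away). RefSeq promoters (build GRCm38.p6, the same coordinates as mm10) were matched for 9 of the 10; *Rbm3* was not among them. The 250 bases before the start site are shown for 4 genes that differ in CpG number, motifs and response, read 5′ to 3′ on the strand of the gene. Capitals mark matches on either strand to 6 motifs, which are the ETS motif spelled CCGGAAG, the SP1 motif spelled GGGCGG, the TATA box spelled TATAAA, the YY1 motif spelled AAGATGGC, the E‐box spelled CACGTG and the NRF1 motif spelled GCATGCGC. The regions are chrX:57393037-57393286 (minus) for *Rbmx*, chrX:68678291-68678540 (plus) for *Fmr1*, chrX:37110323-37110572 (minus) for *Upf3b* and chrX:75095604-75095853 (plus) for *Dkc1*, each lying just outside the first exon.
Rbmx: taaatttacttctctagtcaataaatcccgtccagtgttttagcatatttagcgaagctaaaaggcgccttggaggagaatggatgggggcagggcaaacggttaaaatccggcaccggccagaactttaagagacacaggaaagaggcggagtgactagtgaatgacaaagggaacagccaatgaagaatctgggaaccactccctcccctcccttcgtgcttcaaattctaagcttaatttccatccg
Fmr1: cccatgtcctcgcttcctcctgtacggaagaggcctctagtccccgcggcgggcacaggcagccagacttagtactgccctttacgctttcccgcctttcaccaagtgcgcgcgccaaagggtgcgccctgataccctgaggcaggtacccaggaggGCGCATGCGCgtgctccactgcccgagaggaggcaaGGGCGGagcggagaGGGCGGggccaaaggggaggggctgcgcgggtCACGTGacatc
Upf3b: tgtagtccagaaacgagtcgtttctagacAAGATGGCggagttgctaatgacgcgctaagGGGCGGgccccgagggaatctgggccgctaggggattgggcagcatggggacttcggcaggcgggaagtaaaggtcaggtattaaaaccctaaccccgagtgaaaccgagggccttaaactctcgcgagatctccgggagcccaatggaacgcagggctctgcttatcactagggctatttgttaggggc
Dkc1: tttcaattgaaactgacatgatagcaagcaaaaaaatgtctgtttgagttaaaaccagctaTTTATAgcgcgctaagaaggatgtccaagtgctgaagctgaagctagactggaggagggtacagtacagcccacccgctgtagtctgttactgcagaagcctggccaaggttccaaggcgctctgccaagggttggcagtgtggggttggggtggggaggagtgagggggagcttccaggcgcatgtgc

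The *Fmr1* promoter held 21 CpG dinucleotides in these 250 bases, with matches to the SP1, E‐box and NRF1 letters, and the *Upf3b* promoter held 16, with SP1 and YY1 matches. A second listed start site of *Fmr1*, not shown, had 22 CpG. The *Rbmx* promoter had 9 CpG and none of the 6 motifs, and the *Dkc1* promoter had 5 and a match to the TATA letters. The promoters of the other 5 matched genes, *Pqbp1* with 2 start sites in the table, held from 11 to 28 CpG. Over all 32851 promoters of the table the median was 6 CpG, and 32.7% held the SP1 letters, 12.4% TATA, 6.91% ETS, 6.02% the E‐box, 2.26% NRF1 and 1.56% YY1. A match describes the letters of this window and not a bound site.

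Without DOX the genes differed widely in level. Per kilobase of merged exon (GENCODE), *Nono* was highest, at 125 ± 9.5 CPM per kb (mean ± SD over the 6 noDOX libraries), ahead of *Rbm3* at 99.2 ± 12.6 and *Dkc1* at 68.7 ± 3.05, then *Rbm10* (34.3 ± 3.4) and *Pqbp1* (27.8 ± 1.99). The lower levels were those of *Upf3b* (13 ± 2.03), *Fmr1* (9.89 ± 1.26), *Thoc2* (7.38 ± 0.739), *Ftsj1* (6.51 ± 0.745) and *Rbmx* (4.87 ± 0.806 CPM per kb). Neighbours in this order overlapped in range over these libraries, as *Nono* (113 to 136) did with *Rbm3* (81.4 to 115), except *Rbm3* and *Dkc1*, *Dkc1* and *Rbm10*, and *Pqbp1* and *Upf3b*. Reads of some genes can be shared with copies elsewhere. Of the 50‐base windows in their transcripts, 42.8% in *Rbm10*, 15% in *Nono* and 9.71% in *Rbm3* also occurred in transcripts of other genes (most often Gm12799, Gm8806 and Rbm3-ps), against at most 2.23% in the other 7. The levels of those 3 are therefore less certain. The sequenced read pairs were longer than these windows, so the shares do not measure how many reads were ambiguous. The counting options that the study lists name no strand setting, and the default of the counting program ignores strand, so that reads of *Rbm3* and Rbm3os, of *Rbm10* and *Ndufb11* and of *Dkc1* and *Mpp1*, which overlap on opposite strands over 94, 117 and 45 exonic bases, cannot be told apart.

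The first question was whether these genes lost RNA when full‐length *Xist* was induced. In FL cells every one of the 10 had both DOX libraries below both noDOX libraries, but only *Nono* passed the test in the comparison of group means. The percentage of the noDOX mean that was left ranged from 38.7% (*Rbmx*) to 77.8% (*Dkc1*). Groups failed to overlap in this direction in 25.7% of all tested genes and in 87.9% of the other X‐linked genes. The 1 gene called of 10 stood beside 1.09% of all tested genes and 27.5% of the other X‐linked genes called lower. Replicates with the same number deviated together in all groups, and when edgeR was given that number as a block (the blocked fit) all 10 fell, beside 8.13% of all genes and 80.2% of the other X‐linked genes. Where a gene was called in the blocked fit alone among the relatives and partners described below, its fold change is given from that fit. Of 12721 autosomal genes, that fit called 5.49% lower and 5.93% higher in FL cells, and 9.68% and 10.2% in ΔB+C cells. These shares are the background for the calls among relatives and partners. Such calls were not tested as sets, and single ones are not read as results about a complex. The median log2 (fold change) of the 10 was −0.53, that of the other X‐linked genes −0.86 and that of all tested genes −0.01. Between 13.4% (*Rbmx*) and 86.4% (*Dkc1*) of the 464 tested X‐linked genes other than *Xist* had a larger fall.

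ΔB+C cells, which answer whether the same genes respond without the B and C repeats, again had both DOX libraries below both noDOX libraries for all 10, as in 23.3% of all genes and 81.7% of the other X‐linked genes. *Nono*, *Rbm10*, *Thoc2*, *Ftsj1* and *Dkc1* fell, 5 of 10, beside 2.13% of all genes and 33.9% of the other X‐linked genes. With the block all 10 fell (12% and 75.1%). Without the low‐input DOX replicate 2 library 1 was called (*Nono*), and 9 with the block. The median log2 (fold change) was −0.59, against −0.78 for the other X‐linked genes and 0 for all genes. What was left ranged from 47.5% (*Rbmx*) to 78.6% (*Upf3b*).

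In ΔA cells no gene of the 10 was called, by edgeR with or without the block, by DESeq2 or by limma‐voom, and none had an unadjusted p under 0.05 without the block. With it the unadjusted p was 0.006 for *Fmr1* and 0.0257 for *Rbm3*, which pointed in opposite directions. Among all tested genes and among the other X‐linked genes 0% were called lower, and with the block 0.0152% and 0.441%. The log2 (fold change) ranged from −0.32 (*Fmr1*) to 0.21 (*Rbm3*), with a median of 0.04 against −0.14 for the other X‐linked genes and 0 for all genes. *Thoc2* and *Fmr1* were the 2 whose DOX libraries were both below the noDOX libraries, as were 12.5% of all genes and 35.9% of the other X‐linked genes.

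**Figure D1:**
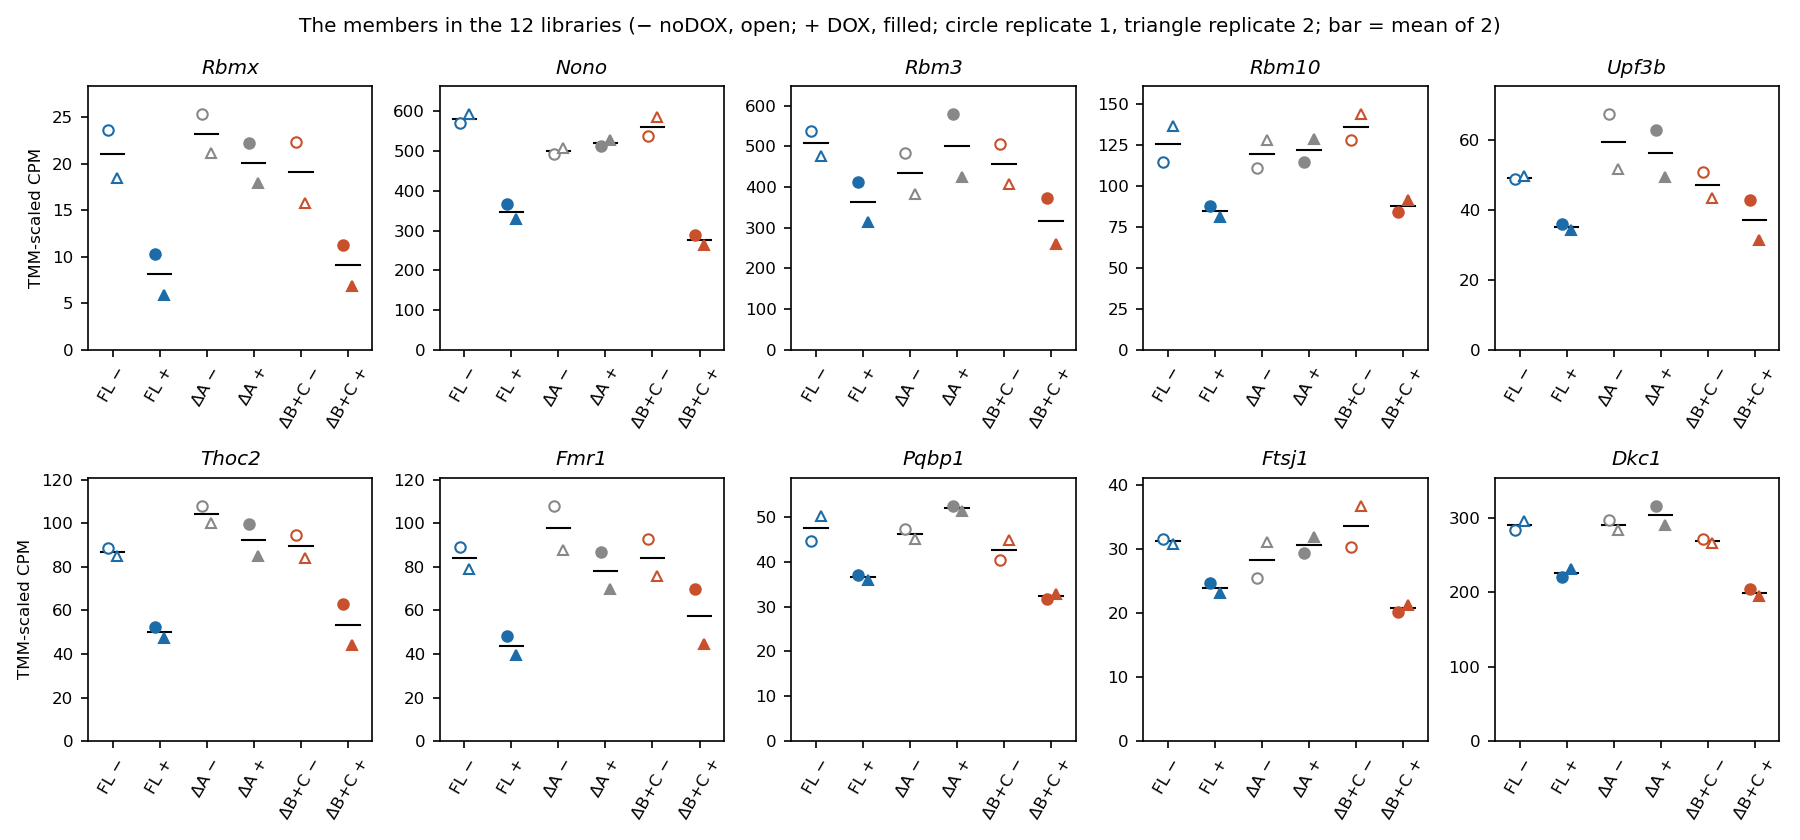
TMM‐scaled CPM of each of the 10 genes (y axis, starting at 0, with its own scale for each gene) in the 12 libraries, grouped along the x axis by line and by noDOX (−, open) or DOX (+, filled); circles are replicate 1, triangles replicate 2 and bars the mean of 2. In FL cells and ΔB+C cells the filled points lie below the open ones in all 10 panels, while in ΔA cells they do so in the *Thoc2* and *Fmr1* panels.

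Among the genes of splicing and nuclear RNA, *Rbmx*, which encodes the heterogeneous nuclear ribonucleoprotein hnRNP G, had the largest log2 (fold change) of the 10 in FL cells. Its level was 23.6 and 18.4 CPM in the 2 noDOX libraries and 10.3 and 5.92 CPM with DOX. ΔB+C cells had 22.3 and 15.8 CPM against 11.3 and 6.79 CPM, and ΔA cells 25.3 and 21.1 against 22.2 and 17.9 CPM. Replicate 2 was below replicate 1 in all 6 groups, with a median log2 ratio of −0.43, a shift wider than the ΔA difference and narrower than those of the other lines. FL cells gave a log2 (fold change) of −1.37 ± 0.326 (SE) (adjusted p = 0.0965, blocked 0.000118). ΔB+C cells gave −1.07 ± 0.324 (adjusted p = 0.119, blocked 0.000482). *Rbmxl1*, its autosomal relative without introns, was at 386 and 403 CPM in noDOX and 373 and 389 CPM with DOX in FL cells (−0.05, adjusted p = 0.808), and at 400 and 425 against 379 and 393 CPM in ΔB+C cells (−0.10, adjusted p = 0.522).

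*Nono*, a protein of paraspeckles and of transcription and splicing complexes, lies nearest to *Xist* of the 10. It stood at 570 and 593 CPM in noDOX and at 366 and 328 CPM with DOX in FL cells. In ΔB+C cells the values were 538 and 586 CPM against 288 and 263 CPM, and in ΔA cells 494 and 508 CPM against 514 and 528 CPM. The replicates were close together, and the DOX libraries of both responding lines were far below them. *Nono* fell in FL cells (log2 (fold change) −0.74 ± 0.0878, 59.7% left, adjusted p = 0.00782). It fell in ΔB+C cells as well (−1.03 ± 0.0882, 49% left, adjusted p = 0.00131). In ΔA cells the difference was 0.06, with a 95% interval from −0.14 to 0.25. The FL cells call was lost when either noDOX library or DOX replicate 2 was left out (log2 (fold change) −0.67 to −0.78), while the ΔB+C cells call was kept without any 1 of its libraries. The genes of its protein family and paraspeckles, *Sfpq*, *Pspc1*, *Matr3* and *Neat1*, were autosomal, and 0 of 4 were called in any line with or without the block. *Sfpq*, for example, was at 723 and 646 CPM against 794 and 765 CPM in FL cells (0.19 ± 0.131) and had a log2 (fold change) of −0.03 ± 0.131 in ΔB+C cells.

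*Rbm10*, a regulator of splice site choice, was at 115 and 137 CPM in noDOX and 87.8 and 81.4 CPM with DOX in FL cells. Levels in ΔB+C cells were 128 and 144 against 83.9 and 91.7 CPM, and in ΔA cells 111 and 128 against 115 and 129 CPM. The ΔA groups interleaved, and the others were apart. It fell in ΔB+C cells (−0.63 ± 0.123, adjusted p = 0.0315) and had the value −0.58 ± 0.123 in FL cells (adjusted p = 0.0691, and 0.00136 with the block). Its autosomal relatives *Rbm5* and *Rbm6* were not called without the block. With it, *Rbm5* rose in ΔB+C cells (75.1 and 73.9 against 99.6 and 88.6 CPM, log2 (fold change) 0.34, adjusted p = 0.0113), and *Rbm6* fell in FL cells (−0.27, adjusted p = 0.0417) and ΔB+C cells (−0.25, adjusted p = 0.0392). The same fit called 5.49% of autosomal genes lower in FL cells, and 9.68% lower and 10.2% higher in ΔB+C cells.

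*Pqbp1* binds polyglutamine proteins and the U5 part of the spliceosome. It measured 44.6 and 50.3 CPM in noDOX and 37 and 36 CPM with DOX in FL cells. ΔB+C cells had 40.5 and 44.8 against 31.8 and 32.8 CPM, and ΔA cells 47.4 and 45.1 against 52.5 and 51.4 CPM. In the last line both DOX libraries lay above both noDOX libraries, the opposite of the other 2, but the log2 (fold change) of 0.17 ± 0.0946 had an adjusted p of 1 in edgeR's test (0.943 with the block). The values were −0.38 ± 0.0949 in FL cells (adjusted p = 0.112, blocked 0.0128) and −0.40 ± 0.0952 in ΔB+C cells (adjusted p = 0.0609, blocked 0.00674). None of 7 spliceosome partners (*Txnl4a*, *Wbp11*, *Prpf8*, *Snrnp200*, *Eftud2*, *Prpf6* and *Cd2bp2*) was called in any line by either fit, and their medians were 0.06 in FL cells and 0.01 in the other 2.

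Of the genes of export and decay, *Thoc2*, the scaffold subunit of the THO complex that couples transcription to mRNA export, stood at 88.6 and 85.1 CPM against 52.4 and 47.3 CPM in FL cells (noDOX and DOX). For ΔB+C cells the values were 94.6 and 84.1 against 62.7 and 44.3 CPM, and for ΔA cells 108 and 100 against 99.5 and 84.9 CPM. *Thoc2* fell in ΔB+C cells (−0.74 ± 0.158, adjusted p = 0.0434) and was −0.80 ± 0.158 in FL cells (adjusted p = 0.0512, blocked 0.000346), whereas 0 of 12 autosomal THO and TREX genes were called. With the block 0 of the 12 were called in FL cells, and 1 fell (*Thoc7*, −0.37, adjusted p = 0.0342) and 2 rose in ΔB+C cells (*Zc3h11a*, 0.34, adjusted p = 0.00657, and *Ddx39b*, 0.21). Of autosomal genes, the blocked fit called 9.68% lower and 10.2% higher in ΔB+C cells. In ΔA cells *Thoc2* had a log2 (fold change) of −0.18 ± 0.157.

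*Upf3b* links the exon junction complex to nonsense‐mediated decay, the degradation of mRNAs with early stop codons. Its level was 48.8 and 49.6 CPM in noDOX and 36.1 and 34.3 CPM with DOX in FL cells. ΔB+C cells had 51 and 43.4 against 42.8 and 31.4 CPM, so that the lower noDOX and the higher DOX library were nearly level. In ΔA cells, which had the highest single value of 67.4 CPM, the second noDOX library was at 51.7 CPM and the DOX libraries at 63 and 49.5 CPM. Values of log2 (fold change) were −0.48 ± 0.185 in FL cells (adjusted p = 0.291, blocked 0.0142), −0.35 ± 0.185 in ΔB+C cells (adjusted p = 0.359, blocked 0.038) and −0.08 ± 0.184 in ΔA cells. Its autosomal paralogue *Upf3a* was at 77 and 80.9 CPM in noDOX and 95.7 and 98.7 CPM with DOX in ΔB+C cells, where it rose with the block (0.30 ± 0.0749, adjusted p = 0.0158) and was not called without it (adjusted p = 0.104). In FL cells it was at 84.4 and 75.3 against 88.2 and 82.5 CPM (0.10, adjusted p = 0.69). Of the 15 decay and exon junction genes, *Upf3a* among them, 0 were called in any line without the block. *Magoh*, an exon junction core protein, fell with the block in FL cells (−0.33, adjusted p = 0.0451) and ΔB+C cells (−0.47, adjusted p = 0.0069), and *Casc3* rose in ΔB+C cells (0.24). Of 8 transcripts known as targets of this decay 0 were called without the block and 1 with it, the higher *Upp1* in FL cells (0.41, adjusted p = 0.00859) and ΔB+C cells (0.58, adjusted p = 0.000878). With the block, between 5.49% and 10.2% of autosomal genes were called in each direction in FL cells and ΔB+C cells. The median of the 8 was −0.01 in FL, 0.24 in ΔB+C and 0.16 in ΔA cells.

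*Fmr1* encodes FMRP, an RNA‐binding repressor of translation. Its values were 89.1 and 79 CPM in noDOX and 48.1 and 39.4 CPM with DOX in FL cells. ΔB+C cells had 92.6 and 75.8 against 70 and 44.6 CPM, with the DOX libraries far apart, and ΔA cells 108 and 87.9 against 86.8 and 69.6 CPM. *Fmr1* thus had the lowest ratio of the 10 in ΔA cells, with 80% left, and its log2 (fold change) there was −0.32 ± 0.221 (95% interval −0.82 to 0.18, adjusted p = 1, and 0.773 with the block). FL cells gave −0.94 ± 0.223 (adjusted p = 0.0965, blocked 0.000141). ΔB+C cells gave −0.55 ± 0.222 (adjusted p = 0.22, blocked 0.00236), and it ranged from −0.92 to −0.27 when 1 library of the line was left out. Of its 7 autosomal relatives and partners 0 were called without the block. With it, *Fxr2* (0.22, adjusted p = 0.043, and 0.23, adjusted p = 0.0252) and *Nufip2* (0.27, adjusted p = 0.0214, and 0.38, adjusted p = 0.00256) rose in FL cells and ΔB+C cells in that order, and *Cyfip2* fell (−0.43, adjusted p = 0.00812, and −0.36, adjusted p = 0.0121). For *Nufip2* the CPM were 263 and 248 against 315 and 300 in FL cells, and 213 and 202 against 293 and 247 in ΔB+C cells. Autosomal genes were called with the block at shares between 5.49% and 10.2% in each direction in these lines.

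*Rbm3*, known as a cold‐inducible RNA‐binding protein, was at 538 and 477 CPM in noDOX and 412 and 313 CPM with DOX in FL cells. The ΔB+C levels were 506 and 408 against 373 and 261 CPM, and those of ΔA 484 and 383 against 579 and 424 CPM. Replicate 2 was again the lower in all 6 groups, with log2 ratios from −0.52 to −0.17 (median −0.37). At its median that shift was narrower than the DOX differences of FL cells and ΔB+C cells. FL cells had a log2 (fold change) of −0.49 ± 0.229 (adjusted p = 0.399, blocked 0.00237), ΔB+C cells one of −0.53 ± 0.229 (adjusted p = 0.257, blocked 0.00114) and ΔA cells one of 0.21 ± 0.228 (adjusted p = 1, blocked 0.943). *Cirbp*, its autosomal relative and the other well known cold‐inducible protein of this type, lay the opposite way. It was at 38 and 28.3 CPM in noDOX and 52.3 and 41.9 CPM with DOX in FL cells, and at 34.8 and 26.4 against 59.5 and 46.2 CPM in ΔB+C cells. *Cirbp* was not called without the block (0.51 ± 0.213, adjusted p = 0.343, and 0.79 ± 0.214, adjusted p = 0.0874), and with it rose in both (adjusted p = 0.0014 and 6.56e-05). The blocked fit called 5.93% of autosomal genes higher in FL cells and 10.2% in ΔB+C cells. In ΔA cells *Cirbp* was at 40.7 and 33 against 44 and 37.4 CPM (log2 (fold change) 0.15).

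**Figure D2:**
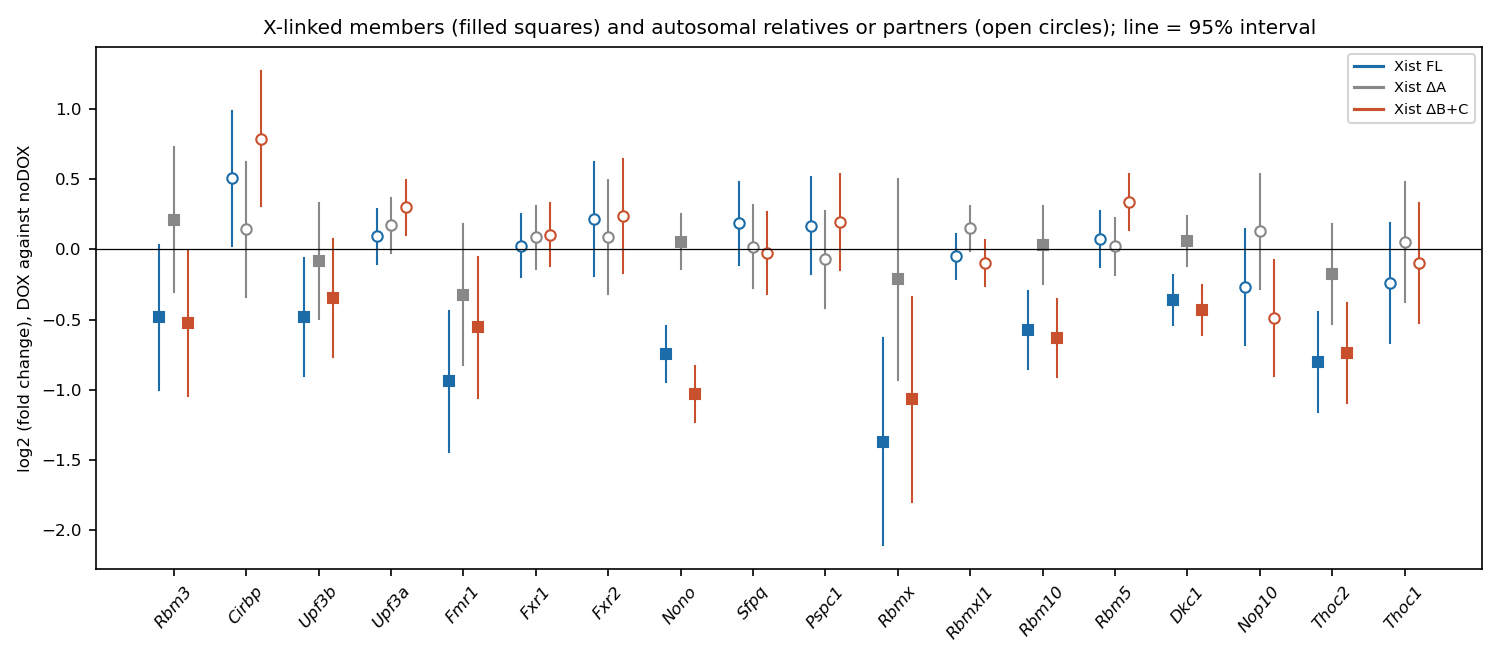
log2 (fold change) of DOX against noDOX (y axis) with its 95% interval (vertical lines) for 8 of the X‐linked genes (filled squares) and 10 autosomal relatives or complex partners (open circles), chosen for the plot after their values were seen, in FL cells (blue), ΔA cells (grey) and ΔB+C cells (red). The squares of FL cells and ΔB+C cells lie below 0, and *Cirbp* lies highest, at 0.79 in ΔB+C cells.

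The last pair modifies the nucleotides of RNA. *Dkc1* encodes dyskerin, the pseudouridine synthase of H/ACA ribonucleoproteins and a part of telomerase. It was at 283 and 296 CPM in noDOX against 220 and 231 CPM with DOX in FL cells, and 272 and 266 against 204 and 195 CPM in ΔB+C cells. In ΔA cells the values were 297 and 283 against 316 and 290 CPM. The replicates of each group lay close together, and *Dkc1* fell in ΔB+C cells (−0.43 ± 0.0785, adjusted p = 0.0252) and was −0.36 ± 0.0784 in FL cells (adjusted p = 0.0725, blocked 0.00597). The ratio was the same in both pairs of replicates in FL cells (−0.36 and −0.36). Of 7 autosomal H/ACA and telomerase partners 0 were called without the block. With it, *Wrap53*, a factor that carries telomerase RNA to Cajal bodies, rose in FL cells (33.8 and 33.9 against 42.7 and 49.3 CPM, log2 (fold change) 0.44, adjusted p = 0.00968) and in ΔB+C cells (31.4 and 32.8 against 40 and 51.1 CPM, 0.50, adjusted p = 0.0035). The core subunit gene *Nop10* fell with the block in ΔB+C cells (143 and 143 against 113 and 90.9 CPM, −0.50, adjusted p = 0.00491), as did *Naf1* (−0.27, adjusted p = 0.0354). Among autosomal genes this fit called 5.93% higher in FL cells, and 9.68% lower and 10.2% higher in ΔB+C cells.

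*Ftsj1* methylates the ribose of tRNA. Its CPM were 31.5 and 30.8 in noDOX and 24.7 and 23.1 with DOX in FL cells. ΔB+C cells had 30.3 and 36.7 against 20.2 and 21.3, and ΔA cells 25.5 and 31.1 against 29.4 and 31.9. The ΔA groups overlapped and the others did not. *Ftsj1* fell in ΔB+C cells (−0.69 ± 0.132, 61.9% left, adjusted p = 0.0297) and had the value −0.38 ± 0.131 in FL cells (76.7% left, adjusted p = 0.238, blocked 0.0323). Of 5 autosomal RNA methylation relatives and partners 0 were called in any line by either fit.

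**Figure D3:**
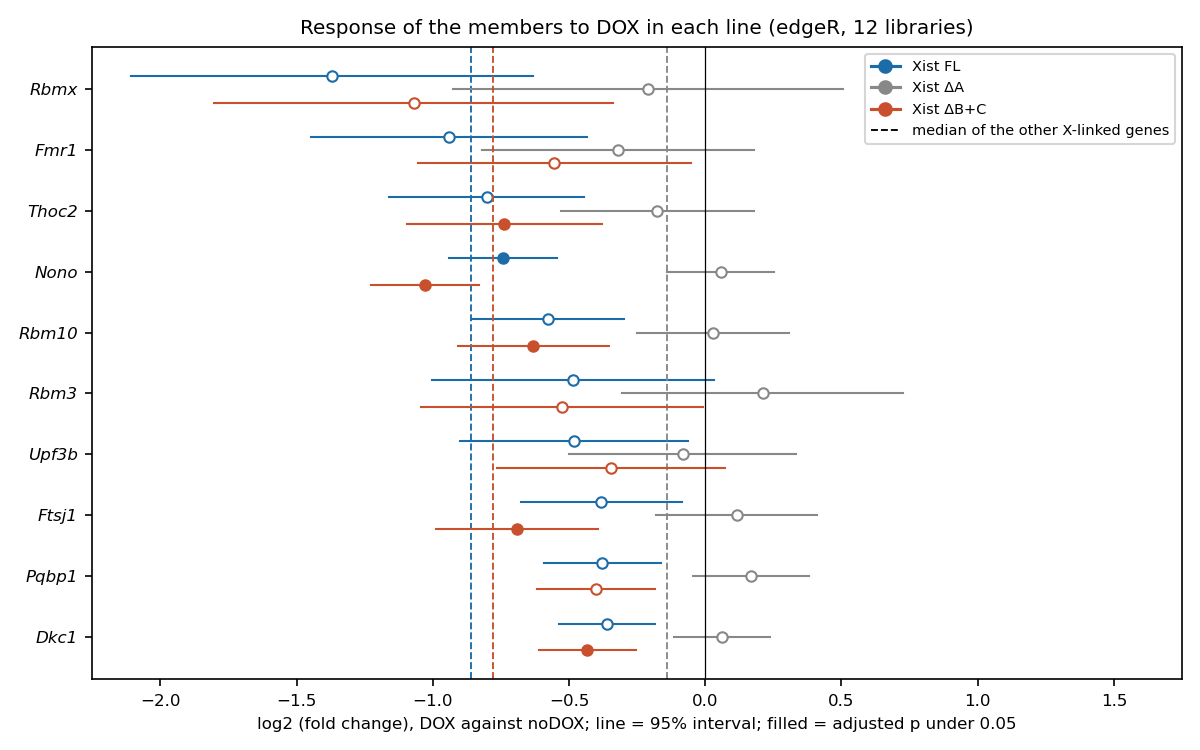
log2 (fold change) of DOX against noDOX (x axis) with its 95% interval for each of the 10 genes (rows, ordered by the value in FL cells) in FL cells (blue), ΔA cells (grey) and ΔB+C cells (red); filled points passed the test and dashed lines are the medians of the 454 other X‐linked genes. Most values of FL cells lie to the right of its dashed line at −0.86, and *Nono* is the 1 gene filled in both responding lines.

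Whether the lines responded differently was tested as the difference of their log2 (fold changes), without adjustment for the share of cells with *Xist*. The paper found that share higher in ΔB+C cells than in FL cells, and its part in these differences was not tested. Between ΔB+C cells and FL cells no gene of the 10 was called (0% of all tested genes by either fit), by DESeq2 or by limma‐voom. Without the block 1 had an unadjusted p under 0.05, *Nono*, which had the lower value in ΔB+C cells (difference −0.29, 95% interval −0.56 to −0.01, adjusted p = 1). With the block *Nono* (unadjusted p 0.025) and *Fmr1* (0.019, higher in ΔB+C cells) did. Without the block the 95% intervals of this difference were widest for *Rbmx* (−0.73 to 1.33) and *Rbm3* (−0.77 to 0.69). Standard errors were smaller with the block, 0.197 against 0.455 for *Rbmx* and 0.113 against 0.323 for *Rbm3*. The narrowest intervals were those of *Dkc1* (−0.32 to 0.18) and *Nono*. The values for *Fmr1* (0.39) and *Ftsj1* (−0.31) pointed in opposite directions, and neither was called.

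Between ΔB+C cells and ΔA cells all 10 had the lower value in ΔB+C cells. The difference was called for *Nono* alone (−1.09 ± 0.124, adjusted p = 0.024), with 0.205% of all genes called in either direction, and for 8 of the 10 with the block (9.32% of all genes), the exceptions being *Upf3b* (−0.27 and adjusted p = 0.278 with the block) and *Fmr1* (−0.25 and adjusted p = 0.27). The *Nono* call was lost without 7 of the 8 libraries of the 2 lines in turn, the exception being ΔB+C DOX replicate 1. Between ΔA cells and FL cells all 10 differences were positive, from 0.40 (*Upf3b*) to 1.16 (*Rbmx*). By edgeR 0 were called (0% of all genes), 7 had an unadjusted p under 0.05, DESeq2 called 3 and limma‐voom 0. With the block 8 were called (3.28% of all genes), all but *Upf3b* (adjusted p = 0.168) and *Ftsj1* (adjusted p = 0.091). The comparisons with ΔA cells share its libraries, so the 2 sets of differences are not independent.

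The lines were also compared without DOX. ΔB+C cells and its parent FL cells differed in none of the 10 (0.0227% of all genes called, 0.993% with the block), and none had an unadjusted p under 0.05 in either fit. Against FL cells, ΔA cells had 0 of 10 called beside 9.84% of all genes, and without the block 1 had an unadjusted p under 0.05, *Nono* (−0.22, 95% interval −0.41 to −0.02). With the block 1 was called beside 33.4% of all genes, *Rbm3*, at 484 and 383 CPM in ΔA cells against 538 and 477 CPM (adjusted p = 0.0392). The unadjusted p of that fit was also under 0.05 for *Nono* (0.0182), lower in ΔA cells. It was so too for *Upf3b* (0.0317), *Thoc2* (0.0174) and *Fmr1* (0.0483), each higher in ΔA cells. Between ΔB+C cells and ΔA cells 0 were called without the block (6.6% of all genes), where none had an unadjusted p under 0.05, and with the block 1, *Upf3b*, lower in ΔB+C cells (51 and 43.4 against 67.4 and 51.7 CPM, adjusted p = 0.0391, 27.9% of all genes). Unadjusted p in this blocked fit was also under 0.05 for *Rbm10* (0.0484) and *Ftsj1* (0.0373), higher in ΔB+C cells. The same held for *Rbmx* (0.0461), *Thoc2* (0.0359) and *Fmr1* (0.0452), lower in ΔB+C cells. DESeq2 and limma‐voom called 0 in each of the 3 comparisons without DOX.

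The 10 genes were also summed and set against all X‐linked counts, with *Xist* included. Their summed level was 1833 and 1817 CPM in noDOX against 1295 and 1139 CPM with DOX in FL cells, 1775 and 1705 against 1188 and 990.8 CPM in ΔB+C cells, and 1767 and 1640 against 1878 and 1676 CPM in ΔA cells. As a share of all X‐linked counts, those of *Xist* among them, they made up between 5.93% and 6.59% in every library. Induced *Xist* adds to that total in the DOX libraries and lowers the share there. The shares with and without DOX are therefore not directly comparable. In both responding lines the log2 ratio was lower in the pair of replicates numbered 2, for 9 of the 10 genes in FL cells (median log2 ratio −0.69 against −0.42) and for all 10 in ΔB+C cells (−0.71 against −0.52). In ΔA cells it was lower in that pair for 8 of the 10 (0.02 against 0.06).

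The genes were not ordered by distance from *Xist*. *Nono*, 2.05 Mb from *Xist*, had the value −1.03 in ΔB+C cells, next to *Rbmx* at −1.07, but in FL cells came after *Rbmx*, *Fmr1* and *Thoc2*. *Dkc1*, the next nearest at 28.39 Mb, had the value nearest 0 in FL cells. The 3 neighbours *Pqbp1*, *Rbm3* and *Ftsj1*, from 95.23 to 95.58 Mb away, had −0.38, −0.49 and −0.38 in FL cells and −0.40, −0.53 and −0.69 in ΔB+C cells.

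**Figure D4:**
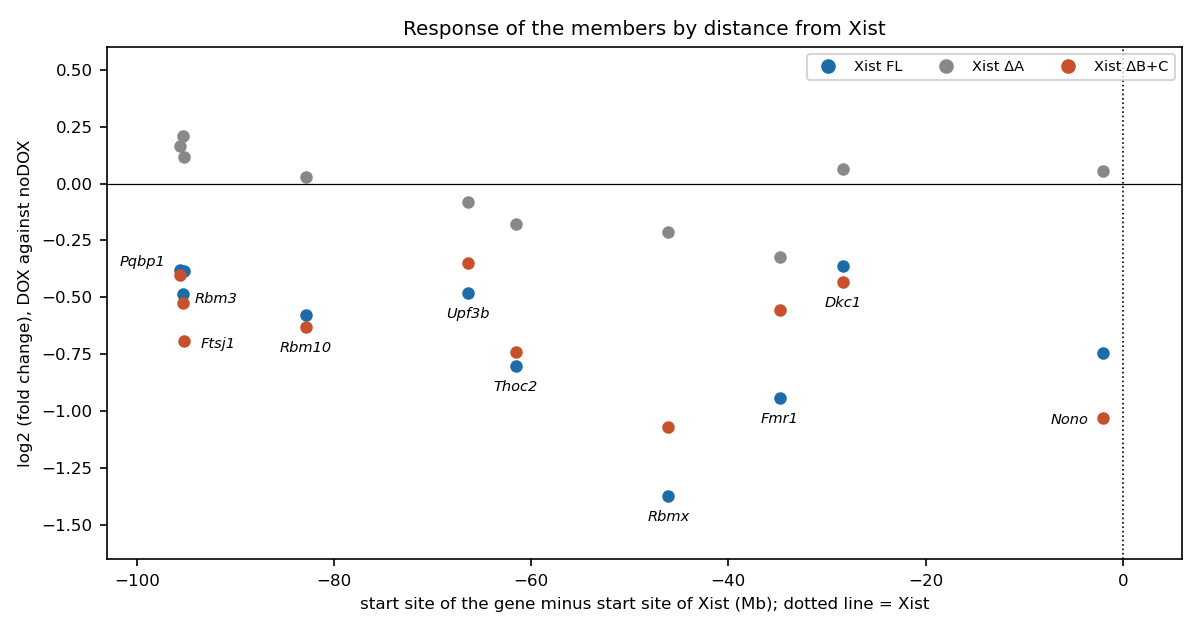
log2 (fold change) of DOX against noDOX (y axis) of the 10 genes by the distance of their start site from that of *Xist* (x axis, Mb, with *Xist* at the dotted line) in FL cells (blue), ΔA cells (grey) and ΔB+C cells (red). Every blue and red point lies below 0, at all distances from 2.05 to 95.58 Mb, and the lowest are those of *Rbmx*, 46.09 Mb away.

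Other X‐linked genes of RNA metabolism, a list of 32 of which 27 passed the filter, give the setting. In FL cells 7 of the 27 fell and in ΔB+C cells 9, none rose, and none was called in ΔA cells, shares close to the 27.5% and 33.9% of the other X‐linked genes given above. With the block the numbers were 24, 21 and 0, beside 80.2% and 75.1% in FL cells and ΔB+C cells. The medians were −0.83, −0.70 and −0.08. *Eif1ax* (a translation initiation factor), *Rbmx2* and *Nkrf*, and the ribosome biogenesis genes *Tsr2*, *Gnl3l* and *Las1l*, fell in both lines, as did *Zfp36l3*, an RNA decay factor. *Gnl3l*, for example, was at 129 and 128 CPM in noDOX and 71.1 and 66.2 CPM with DOX in FL cells (−0.91, adjusted p = 0.00249). The lowest value was that of *Zfp36l3*, from 6.38 and 5.94 to 1.18 and 0.822 CPM in ΔB+C cells (−2.61 ± 0.3, adjusted p = 0.00436). *Eif2s3x* and *Hnrnph2* were called in ΔB+C cells, and with the block in FL cells too.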

How the data were processed

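RNA‐seq counts of 12 libraries were used, 2 in each of 6 groups taken from the sample labels. The authors mapped read pairs to mm10 with TopHat2 2.1.0 and the refFlat annotation, keeping 1 alignment per read, and counted pairs over exons with featureCounts 1.5.1, leaving out pairs on different chromosomes (versions per the submitters' processing notes). The deposited values are these raw counts per gene, not normalized. Removal of duplicate reads is not given in the sources used here, and no strand option is among those listed for counting, whose default is unstranded. The study describes the replicates as biological duplicates.

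Genes reaching 1 CPM in 6 or more libraries were tested with edgeR 4.0.16 in R 4.3.3 (quasi‐likelihood test, robust, 6 group means over all 12 libraries, 6 residual degrees of freedom), with TMM factors from expressed autosomal genes (0.978 to 1.02), Benjamini–Hochberg adjustment over all 13191 tested genes and a threshold of 0.05. CPM values are TMM‐scaled, and 3 counts correspond to between 0.0727 and 0.0957 CPM. A second fit had the replicate number as a block. The numbers come from the labels. Across 12721 autosomal genes the differences between replicates 2 and 1 correlated between all 15 pairs of groups (r from 0.405 to 0.838, a description across genes, which are not independent replicates), so the numbers were taken as pairing the libraries, and the blocked values are given. Standard errors were taken from the fold change and its F statistic. No 2 libraries held identical counts.

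The 10 genes, the partner lists and the tests were chosen with earlier results of these data known. Named were all 10 genes, *Xist*, and of each list the called genes and at most 4 more with the largest values. The genes shown in full from the relatives, beyond this rule, were chosen after their values were seen. Gene positions, exon lengths and shared windows came from GENCODE vM21 on the same build, and promoters from RefSeq. Alternatives were DESeq2 1.42.0, limma‐voom (limma 3.58.1), other scalings, other filters, the compared lines alone, the block, and each library left out in turn. The edgeR fits with and without the block, DESeq2 and limma‐voom were tested on simulated data with known changes in 1 comparison, where DESeq2 made false calls at a higher rate than its threshold allows. The other scalings, filters and subsets used the same code and were not simulated separately. The plots used matplotlib 3.10.9 (Python 3.11.15).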

Additional observations from a re-analysis of the deposited data

Results flagged for a closer look

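The response of *Nono* to DOX differed between lines by a test of the difference itself. Its log2 (fold change) in ΔB+C cells was lower than that in ΔA cells by a difference of −1.09 ± 0.124 (SE, 95% interval −1.36 to −0.81, adjusted p = 0.024 by edgeR, blocked on the replicate number 0.000462). Both ΔB+C cells pairs of replicates had a negative log2 ratio (−0.90 and −1.16), and both ΔA cells pairs one close to 0 (0.06 and 0.05). The *Nono* call without the block was lost when most of the libraries of these lines were left out in turn. It was also lost with these lines fitted alone. With the block, 8 of the 10 genes were called for this difference. With 2 libraries in a group, single libraries were not screened for outlying values.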

How the results depend on the processing

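In FL cells and in ΔB+C cells all 10 directions were kept under every alternative tried, while the number called was not. The replicate block changed it from 1 to 10 in FL cells, from 5 to 10 in ΔB+C cells, from 0 to 8 for ΔA cells minus FL cells, from 1 to 8 for ΔB+C cells minus ΔA cells, and from 0 to 1 for ΔA cells against FL cells and for ΔB+C cells against ΔA cells without DOX. It changed no other call of the 10 genes. DESeq2 called 7 in FL cells, 3 for ΔA cells minus FL cells and 5 for ΔB+C cells minus ΔA cells. No filter and a filter of 5 CPM each gave 2 in FL cells. The libraries of the compared lines alone gave 0 in FL cells, 0 in ΔB+C cells and 0 for ΔB+C cells minus ΔA cells, with fewer libraries behind the spread. Leaving out 1 library gave 0 to 1 called in FL cells (0 without either noDOX library or DOX replicate 2), 1 to 3 in ΔB+C cells (1 without either noDOX library or DOX replicate 2) and 0 to 1 for ΔB+C cells minus ΔA cells. With the block and 1 library left out, an alternative chosen after seeing the data, 6 to 9 and 8 to 10 were called in FL cells and ΔB+C cells. The ΔA cells median of 0.04 was 0 with library totals alone and −0.02 to 0.05 without 1 library. Signs changed in ΔA cells only, for values that passed no test. With library totals alone *Rbm10* was −0.014. Without 1 library the values ranged from −0.004 to 0.13 for *Dkc1*, −0.021 to 0.26 for *Ftsj1*, −0.072 to 0.14 for *Rbm10*, −0.032 to 0.42 for *Rbm3* and −0.27 to 0.12 for *Upf3b*. Where a cause of these shifts is not given by the alternative's own construction, the cause was not tested. No scaling moved the median of all genes to more than 0.042 from 0.

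Libraries of 31337490 to 41240470 counts put the lowest value of any of the 10 genes, 5.92 CPM for *Rbmx*, at 226 counts. Detection limits cover counting error alone, since PCR copies are not separate molecules.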

Other observations

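The 10 genes varied together across the 12 libraries. Pearson's r of their log2 CPM over the libraries, which share depth and the replicate shift and fall into DOX and noDOX clusters, ranged from 0.48 to 0.97 over the 45 pairs of genes, with a median of 0.79. By the same measure the 3 other genes nearest to their mean profile were X‐linked: *Smc1a*, a subunit of cohesin (r = 0.994), *Timm8a1*, a mitochondrial import protein (r = 0.994), and *Nkrf*, a repressor of transcription that also takes part in ribosomal RNA processing (r = 0.991). *Smc1a* was at 169 and 164 CPM without DOX and 93.6 and 81.2 CPM with DOX in FL cells, at 173 and 157 against 98.8 and 70.2 CPM in ΔB+C cells, and at 175 and 157 against 175 and 160 CPM in ΔA cells.

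The replicates numbered 1 and 2 differed in a gene‐specific way. Replicate 2 was below replicate 1 in all 6 groups for *Rbmx*, *Rbm3*, *Thoc2* and *Fmr1*, with median log2 ratios of −0.43, −0.37, −0.16 and −0.29, and in 5 of 6 for *Upf3b* (−0.29). For *Rbm10* it was below in 1 of 6 groups, with a median log2 ratio of 0.17, and for *Ftsj1* in 2 of 6 (0.10). What set the numbered replicates apart is not given in the sources used here, and was not tested.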
